A study of Mus musculus with 14 samples.

Results

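The Hox genes of the mouse were taken as all rows of the gene count table whose symbol is Hoxa, Hoxb, Hoxc or Hoxd followed by a paralogue number. This gave 39 of 25131 rows, with 11 genes in the Hoxa cluster, 10 in Hoxb, 9 in Hoxc and 9 in Hoxd. RCOR2 peaks were taken from the span between the outermost bases of each cluster, extended by 50 kb on both sides, which gave 35 of 53366 peaks on chromosomes. Every sample came from embryonic stem cells (ESCs) with the strain background C57BL/6. The culture medium held fetal bovine serum, leukemia inhibitory factor and the kinase inhibitors PD0325901 and CHIR99021 (2i). RNA-seq was made from 2 libraries of genotype RCOR2 KO and 2 of genotype WT. The peaks come from anti-HA chromatin immunoprecipitation (ChIP) of cells expressing RCOR2-HA, with 2 samples merged in the list. Its negative controls were WT cells in replicate 1 and mCherry expressing cells in replicate 2. Replicate 1 was read single-end and replicate 2 paired-end, so replicate and sequencing mode cannot be told apart. The deleted part of Rcor2, whether the KO line is 1 clone and the promoter of the tagged RCOR2 are not stated in the labels.

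Hox genes encode homeodomain transcription factors that give cells along the body axis their position. In mammals they lie in 4 clusters, and within each cluster all genes are read in the same direction, from the posterior members with high numbers to the anterior members with low numbers. Genes of the same number in different clusters are paralogues. In pluripotent cells the clusters are textbook targets of Polycomb repression, and they open in order during differentiation, for which retinoic acid is a well-known trigger. RCOR2 is a CoREST family protein, a partner of the histone demethylase LSD1 and of histone deacetylases.

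Rcor2 itself had 157 and 103 counts in the libraries labelled KO and 193 and 107 in the WT libraries. This is 54.0 ± 0.212 CPM (counts per 1000000 counts after scaling; SD, n = 2) against 81.4 ± 0.117, a log2 fold change of -0.59 with an SE of 0.23, which did not pass the test (edgeR adjusted p = 0.0636). The counts therefore give no independent check of the KO label, and every direction below rests on that label. Library totals were 2951498 and 1974865 counts in KO and 2368804 and 1286393 in WT, so the KO pair was deeper. The ESC markers in a list of 10 were all tested, and their summed level was 4853 and 4989.5 CPM in the KO libraries and 4106 and 4373 CPM in the WT libraries. Of these, 3 were called higher in KO and 1 lower, beside 10.4% and 9.30% of all genes tested (edgeR adjusted p under 0.05). Relative to the median of each gene's chromosome, 2 were called higher and 3 lower, beside 6.28% and 6.67%. Sox2, not called before centring (-0.24), was among the lower ones at -0.72 (edgeR adjusted p = 1.90e-04). Klf4 rose from 265 to 657 CPM (log2 fold change 1.30, edgeR adjusted p = 3.44e-09) and Tbx3 from 198 to 508 CPM (1.37, adjusted p = 2.92e-09). Nanog was higher (0.48, adjusted p = 0.0127) but had -0.44 relative to chromosome 6, and its call was lost without either KO replicate. Dppa5a was lower (-0.47, adjusted p = 0.0168), a call lost without KO replicate 1, KO replicate 2 or WT replicate 1. Chromosomes shifted as wholes. The median log2 fold change was 0.92 over the 502 tested genes of chromosome 6, where Hoxa lies, and -0.49 over the 870 of chromosome 11, where Hoxb lies. It was -0.00 on chromosome 15 (Hoxc) and -0.07 on chromosome 2 (Hoxd). Their part in the Hox results was not tested beyond the values centred on the chromosome that are given with them.

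Sequence is shown for the Hox promoters whose 250 bases before the start overlap an RCOR2 peak, since here the letters of a peak can be read next to the gene. The RefSeq promoter table for GRCm38.p6 holds 22 of the 39 Hox genes in 24 windows. Of these, the Hoxd9 window at chr2:74697513-74697762 (plus strand), the Hoxd8 window at chr2:74704365-74704614 (plus strand) and the Hoxc4 window at chr15:103034145-103034394 (plus strand) are given below. Capitals mark the bases inside an RCOR2 peak.
Hoxd9: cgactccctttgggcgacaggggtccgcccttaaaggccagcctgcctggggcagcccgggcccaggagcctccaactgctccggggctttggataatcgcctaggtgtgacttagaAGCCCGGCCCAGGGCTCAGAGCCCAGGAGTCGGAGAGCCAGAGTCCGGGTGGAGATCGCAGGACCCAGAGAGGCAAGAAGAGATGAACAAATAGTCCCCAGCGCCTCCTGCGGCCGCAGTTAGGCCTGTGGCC
Hoxd8: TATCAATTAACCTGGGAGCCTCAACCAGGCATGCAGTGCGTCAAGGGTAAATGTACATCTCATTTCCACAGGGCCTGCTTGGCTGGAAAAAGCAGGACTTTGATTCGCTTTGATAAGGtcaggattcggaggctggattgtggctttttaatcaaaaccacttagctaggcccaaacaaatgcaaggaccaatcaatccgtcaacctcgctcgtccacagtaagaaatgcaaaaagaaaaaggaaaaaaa
Hoxc4: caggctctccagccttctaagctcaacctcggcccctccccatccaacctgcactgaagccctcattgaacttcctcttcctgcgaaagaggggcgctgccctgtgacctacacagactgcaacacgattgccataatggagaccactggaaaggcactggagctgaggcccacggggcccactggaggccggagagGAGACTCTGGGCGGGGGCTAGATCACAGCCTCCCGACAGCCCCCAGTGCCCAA
In Hoxd9, 133 of the 250 bases lie in the peak and the summit is 38 bases after the start. In Hoxd8, 118 bases lie in the peak, whose summit is 214 bases before the start. In Hoxc4, 53 bases lie in the peak and the summit is 36 bases after this start, which is inside the Hoxc4 gene interval. All 3 peaks are weak within the authors' list, with a −log10 q of 3.79 at Hoxd9, 3.63 at Hoxd8 and 2.62 at Hoxc4. The shares of all peaks with a lower value were 22.3%, 19.7% and 5.78%. The 300-base Hoxd8 window, with 50 bases after the start included, had 46.7% GC and 6 CpG, against 68.3% and 20 CpG in Hoxd9 and 60.3% and 9 CpG in Hoxc4.

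RCOR2 peaks lay in or within 1 kb of genes of 3 of the 4 clusters, and no Hoxb gene had one that close. The Hoxa window (chr6:52105367-52310880) held 9 peaks, of which 8 were inside the cluster. The Hoxb window (chr11:96144316-96418254) held 4, with 3 inside. The Hoxc window (chr15:102871131-103086856) held 12, all inside, and the Hoxd window (chr2:74618225-74815142) held 10, with 9 inside. Per 100 kb of window this is 4.38, 1.46, 5.56 and 5.08 peaks, where the span of the coding genes on all chromosomes has 1.98. Hox clusters are gene dense. Windows of the same size centred on each of 21887 coding genes were counted too, but were not matched to the clusters in gene number. They held a median of 6 peaks at the Hoxa size, 8 at the Hoxb size, 6 at the Hoxc size and 5 at the Hoxd size. For Hoxa, 33.3% of such windows held more peaks, for Hoxc 25.3% and for Hoxd 28.2%. For Hoxb, 66.4% held more. With windows of the size of the clusters alone, 16.8%, 59.3%, 9.43% and 12.1% held more peaks than Hoxa, Hoxb, Hoxc and Hoxd. The lists of peaks from the TALE pull-downs at the Nanog locus had 0 peaks in the 4 windows.

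**Figure D1:**
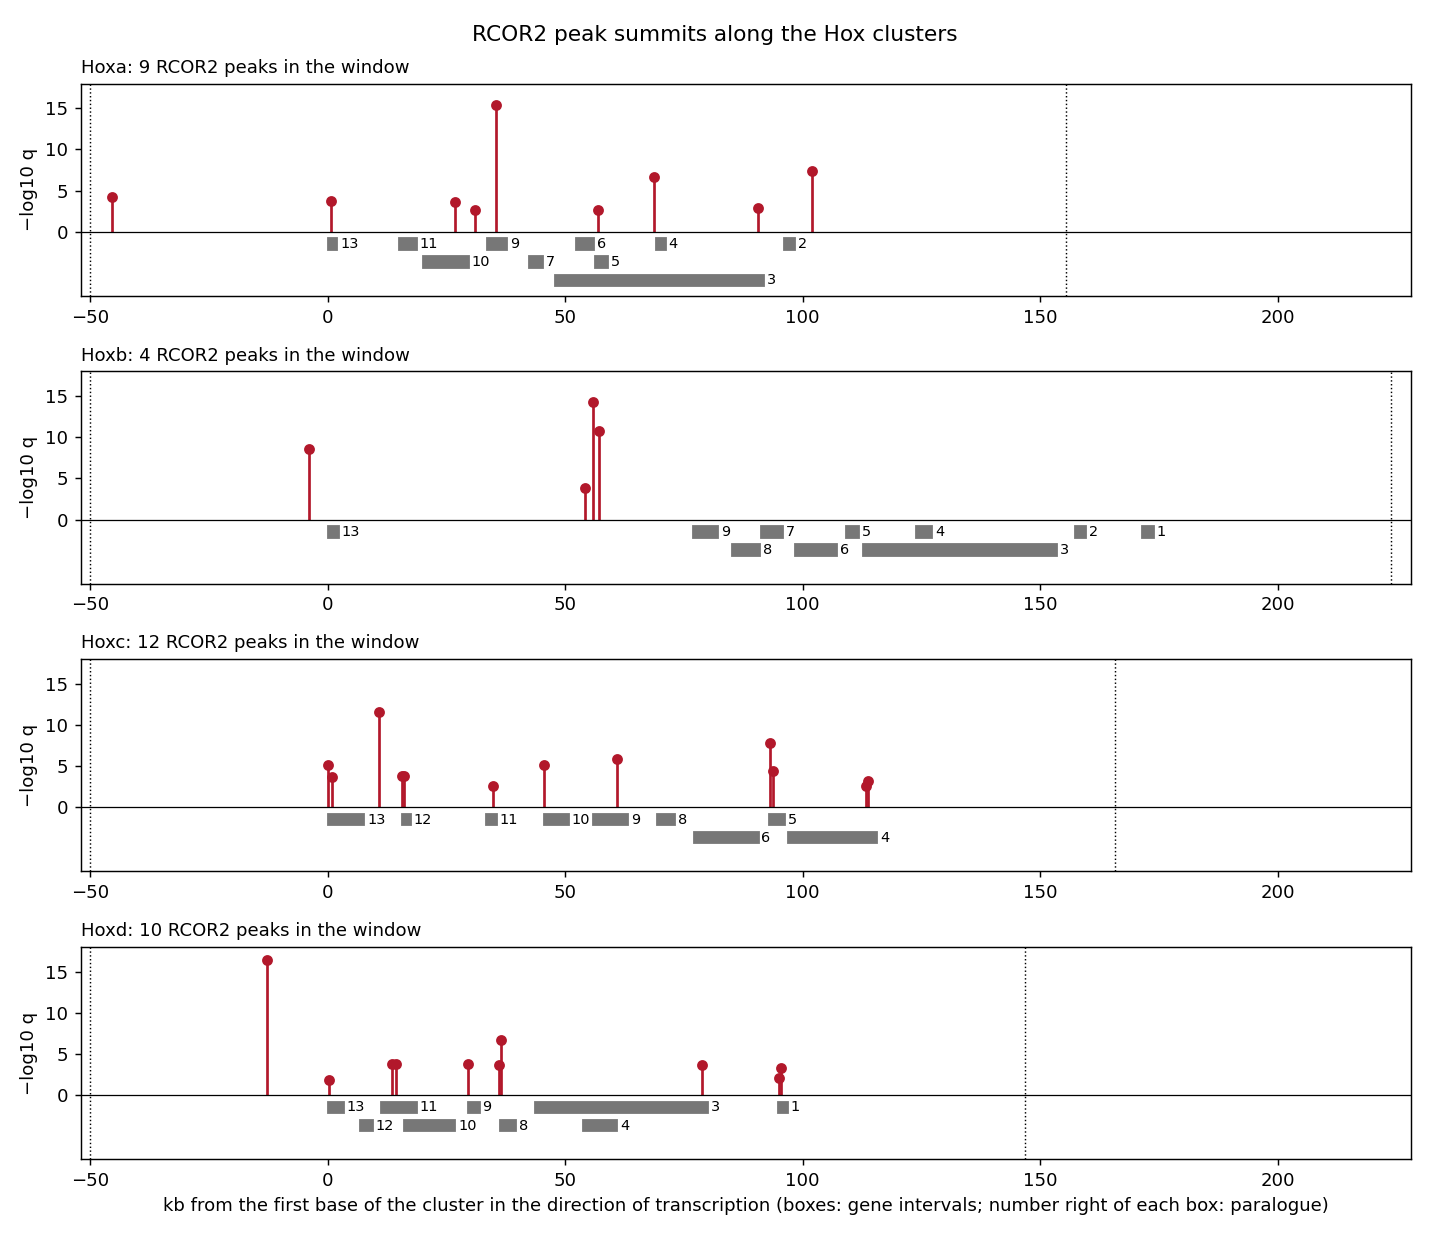
RCOR2 peak summits (red, height is the authors' −log10 q) and the intervals of 38 Hox genes (grey boxes, numbered by paralogue) along each cluster, in kb from the first base of the cluster in the direction of transcription. Dotted lines mark the ends of the windows. The 9, 12 and 10 peaks of Hoxa, Hoxc and Hoxd lie mostly among the genes, and the 4 Hoxb peaks all lie before Hoxb9.

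The Hox peaks had a lower median −log10 q than the list as a whole, and no test of this was made. Their median fold was 4.15 against 4.38 over all peaks, and their median −log10 q was 3.79 against 5.08, both as the authors' caller gave them. A −log10 q of at least 5 was reached by 13 of the 35 (37.1%, against 50.0% of all peaks). A fold of at least 5 was reached by 10 (28.6% against 33.7%). Peak width had a median of 247 bases, against 260 over all peaks. Only 2 Hox peaks were at least 1000 bases wide, the strongest of Hoxb and of Hoxd, and 3 of the 35 were in the top 10% of all peaks by −log10 q. Summits within 1 kb of a Hox start numbered 21, of which 5 were before the start and 16 after it. Inside a Hox gene interval lay 24.

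In Hoxa the strongest peak was at chr6:52225188-52225957 inside Hoxa9, a posterior gene, with fold 7.58 and −log10 q 15.4, and its summit lay 1961 bases after the start. Another, at chr6:52192071-52192286 with fold 5.07 and −log10 q 6.64, lay 486 bases before the start of Hoxa4 and inside the long Hoxa3 interval. Further peaks lay 679 bases after the start of Hoxa5, 889 after that of Hoxa10 and 757 after that of Hoxa13. Hoxa3 and Hoxa6 had a summit within 1 kb only through these shared stretches and a weak peak inside the Hoxa3 interval. Hoxa2, Hoxa7 and Hoxa11 had none within 1 kb.

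The Hoxb peaks stood apart from the genes. The strongest pair, at chr11:96250093-96251259 (fold 6.51, −log10 q 14.3, 1167 bases wide) and chr11:96251475-96252014 (fold 6.44, −log10 q 10.7), lay in the long stretch between Hoxb13 and Hoxb9. The nearer of the pair was 19775 bases before Hoxb9. A peak at chr11:96190190-96190627 (fold 5.11, −log10 q 8.63) was 3999 bases before Hoxb13, and the fourth, at chr11:96248260-96248556, had fold 3.92. From the last of these summits to the next one on the chromosome was 276 kb without a peak, and this stretch held 9 of the 10 Hoxb genes, Hoxb9 to Hoxb1. The median distance between neighbouring summits over all chromosomes was 11.0 kb, and 3.72% of such distances were longer than 276 kb. The Hoxb window was also the most sensitive to its width: 15 peaks lay within 100 kb of the cluster in place of 4 within 50 kb.

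Hoxc had the most peaks. The strongest, at chr15:102931275-102932093 (fold 6.67, −log10 q 11.6), lay between Hoxc13 and Hoxc12, 4955 bases before Hoxc12. The next was at chr15:103014152-103014618 inside Hoxc5 (fold 5.29, −log10 q 7.83), 298 bases after the start, and the third at chr15:102981782-102982161 inside Hoxc9 (fold 4.84, −log10 q 5.89), 5054 bases after the start. Hoxc13 had summits 80 and 976 bases after its start, Hoxc12 had them 132 before and 353 after, and Hoxc4 had them 36 and 572 after. The Hoxc10 peak, at chr15:102966571-102966702 (fold 4.61, −log10 q 5.16), was 168 bases before the start. Hoxc11 had a summit 1338 bases after its start. Hoxc8 and Hoxc6 had none within 1 kb.

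In Hoxd the strongest peak was outside the Hox genes. It lay at chr2:74655293-74656435 in Evx2, the neighbouring even-skipped homeobox gene, 12664 bases before Hoxd13, with fold 8.04 and −log10 q 16.4, the highest of the 35. The second, at chr2:74704690-74705284 inside Hoxd8, had fold 5.07 and −log10 q 6.64. A tie at −log10 q 3.79 followed, with peaks at chr2:74681695-74681891 and chr2:74682556-74682697 inside Hoxd11 and at chr2:74697630-74698162 at the start of Hoxd9. Hoxd13, at the end of the cluster, had a summit 336 bases after its start with fold 2.83, the lowest of the 35. Hoxd1, at the other end, had 2 summits, 331 and 739 bases after its start. Hoxd3 held a peak at chr2:74746898-74747074, while Hoxd4, Hoxd10 and Hoxd12 had none within 1 kb.

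Counted by gene, 21 of the 39 Hox genes (53.8%) had a summit inside the gene interval or within 1 kb of it. They were 8 of 11 in Hoxa, 0 of 10 in Hoxb, 7 of 9 in Hoxc and 6 of 9 in Hoxd. Over 104 other homeobox genes the share was 67.3%, and 58.9% of the 20762 coding genes among the rows counted had one. For genes in the promoter table the share with a summit within 1 kb of the start was 40.9% of 22 Hox genes, 50.7% of 73 other homeobox genes and 46.2% of 16619 genes. With a −log10 q of at least 5 the shares within 1 kb of the gene were 23.1%, 33.7% and 41.0%. Neighbouring Hox genes can share a peak, so these are not independent counts, and no test was made.

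The 24 Hox promoter windows of 300 bases had a median GC of 57.7% and a median of 14.5 CpG, against 52.7% and 7 over 32851 promoters. The 9 with a summit within 1 kb of the start had 62.0% GC and 25 CpG. The 15 without had 54.3% and 13. All promoters with a summit had 62.7% and 22 CpG. The left and right parts of the RE1 element, to which the CoREST-recruiting repressor REST binds, were searched on both strands as CAGCACC and GGACAG, which do not overlap in sequence. CAGCACC was found in 2 of the 24 windows (8.33%, against 7.14% of all promoters) and GGACAG in 3 (12.5% against 22.2%). None of the 9 Hox windows with a summit within 1 kb held CAGCACC and 1 held GGACAG. The search covered only 250 bases before to 50 bases after each start. At Hoxa5, Hoxa10, Hoxa13, Hoxd1, Hoxd11 and Hoxd13 the nearest summit lay outside it, 331 to 889 bases after the start. The search therefore could not find the element under those peaks.

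The clusters also carry microRNA genes, and their place relative to the peaks is shown because 1 of them lies inside a peak. The mature sequences follow, from RefSeq on GRCm38.p6, with the seed (bases 2 to 8) in capitals.
miR-10a-5p: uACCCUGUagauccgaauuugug
miR-10b-5p: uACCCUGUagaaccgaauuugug
miR-196a-5p: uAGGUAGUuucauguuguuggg
miR-196b-5p: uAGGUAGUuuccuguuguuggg
miR-615-5p: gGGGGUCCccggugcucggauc
miR-615-3p: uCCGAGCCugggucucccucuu
The miR-10 pair share a seed, as do the miR-196 pair, and both families are encoded in the clusters and are known to target Hox mRNAs. Mir615 (chr15:103014910-103015001) lay wholly inside a peak at chr15:103014899-103015172 in Hoxc5 (fold 4.38, −log10 q 4.46). Mir196b, in Hoxa, was 25 bases from the peak at chr6:52229806-52230056. The distance was 6648 bases for Mir196a-2 in Hoxc, 13150 for Mir196a-1 in Hoxb, 20761 for Mir10b in Hoxd and 65151 for Mir10a in Hoxb. All 6 genes had 0 counts in the 4 RNA-seq libraries, which were not libraries of small RNA.

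Hox transcripts were scarce in these cells and more abundant in the libraries labelled KO. The 39 genes together held 299 and 227 counts in the KO libraries and 88 and 58 in the WT libraries. This is 103 and 119 CPM against 37.1 and 44.2 CPM, or 111 ± 11.0 against 40.6 ± 5.02 (mean ± SD, n = 2), 2.73-fold higher in KO. Both KO libraries were above both WT libraries. A count in at least 1 library of the group was found for 30 Hox genes in KO and 22 in WT, while 61.2% and 60.9% of all rows had one. The KO pair was deeper, and the part of depth in the detection of such low genes was not tested. No library had a count for 8 genes, which were Hoxa2, Hoxa3, Hoxa6, Hoxa11, Hoxb1, Hoxb8, Hoxd1 and Hoxd12. In bulk RNA, more cells that express a gene and more RNA per cell cannot be told apart.

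**Figure D2:**
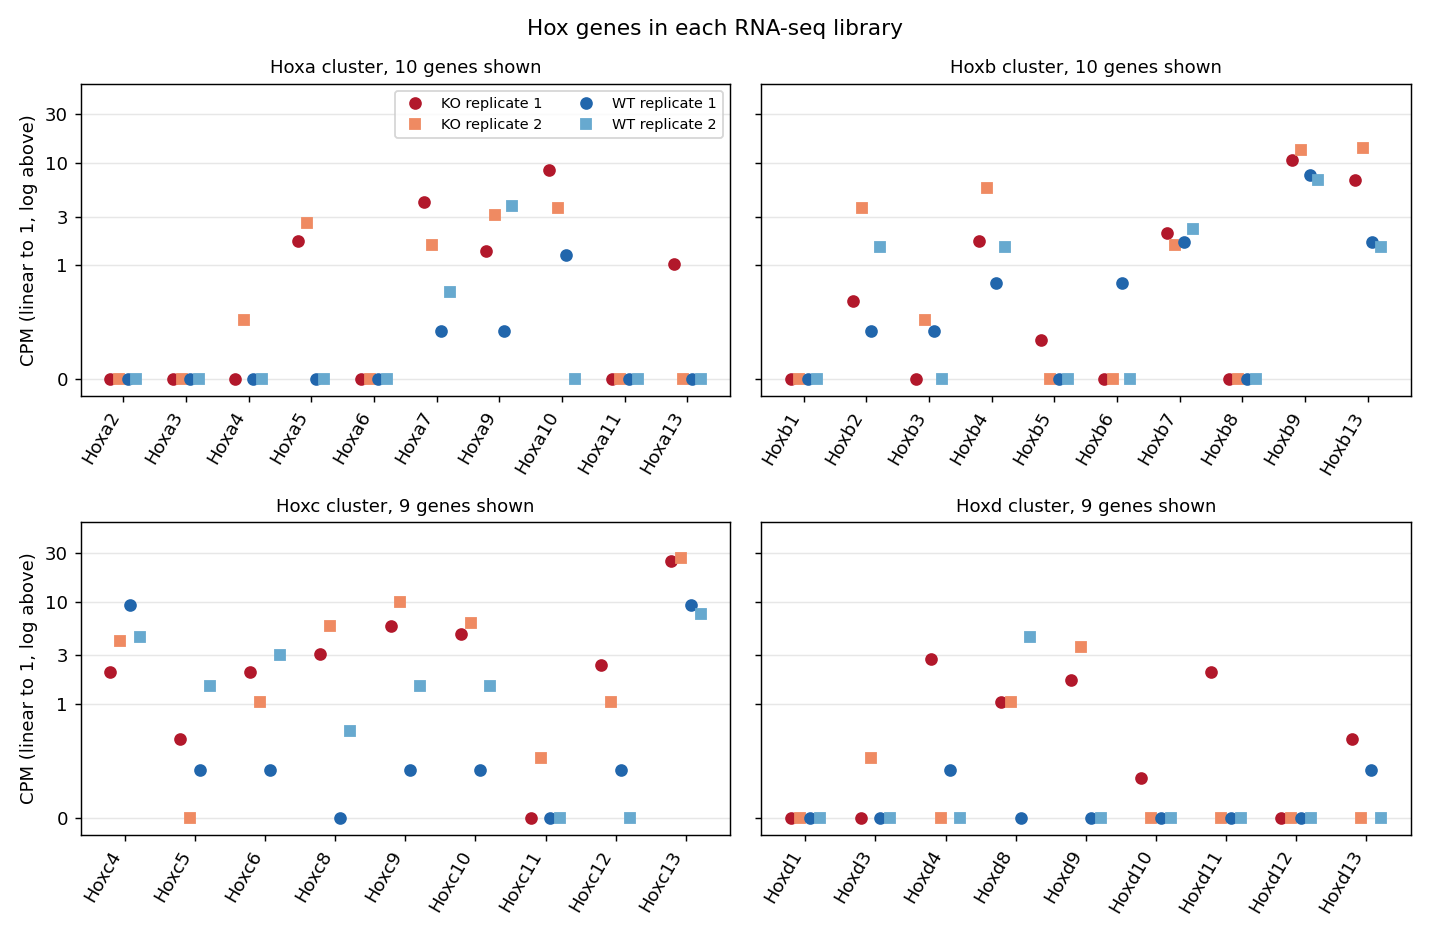
CPM of 38 of the 39 Hox genes in the 2 KO libraries (red and orange) and 2 WT libraries (blues), by cluster, on an axis that is linear to 1 CPM and logarithmic above. Hoxc13 is the highest, and 8 genes sit at 0 in all 4 libraries.

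By cluster, the ratio of the means was highest in Hoxa. Its 11 genes summed to 25.9 and 18.8 CPM in KO and 2.11 and 5.33 CPM in WT, 6.01-fold. As a log2 ratio this is 2.59, and it was 2.07 without WT replicate 1 and 3.41 without WT replicate 2. Hoxb summed to 22.4 and 39.2 CPM against 13.5 and 13.7 (2.27-fold), and Hoxc to 46.3 and 55.5 CPM against 20.7 and 20.6 (2.47-fold). Hoxd was the lowest, at 8.63 and 5.23 CPM against 0.843 and 4.57 CPM (2.56-fold), and the upper WT library was close to the lower KO library. The log2 ratio of Hoxd was 0.60 without WT replicate 1 and 3.04 without WT replicate 2. The Hoxa log2 ratio is 1.67 after the median of chromosome 6 is taken off. For Hoxb it is 1.18, and 1.67 relative to chromosome 11.

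By paralogue number, the posterior genes 9 to 13 summed to 71.8 and 82.7 CPM in KO and 21.9 and 22.9 in WT, 3.45-fold. The anterior genes 1 to 4 summed to 16.2 and 22.5 CPM against 11.4 and 8.38 (1.96-fold). The central genes 5 to 8 summed to 15.2 and 13.6 CPM against 3.79 and 13, so WT replicate 2 was close to both KO libraries. The 5 Hox genes with most counts held 56.0% of all Hox counts. Without Hoxc13, the highest, the ratio over the other 38 genes was 2.64-fold.

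**Figure D3:**
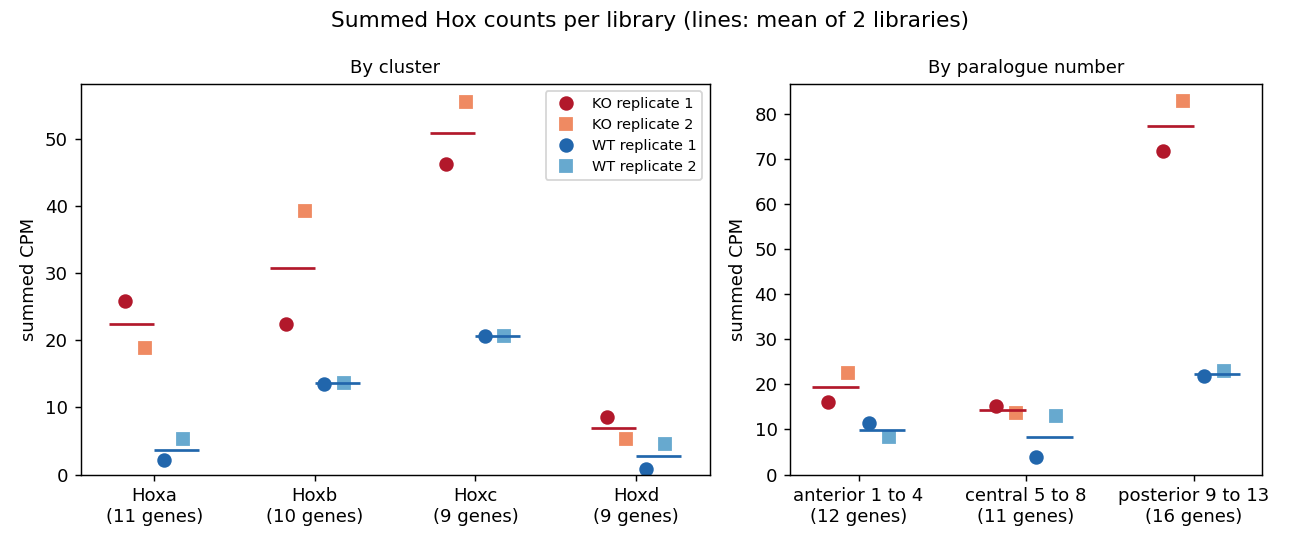
Summed CPM of the Hox genes in each library, by cluster (left) and by paralogue number (right), with short lines at the mean of the 2 libraries of a group. KO libraries lie above WT libraries in every group, with the smallest gaps in Hoxd and in the central genes.

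Only 7 of the 39 Hox genes passed the filter on low counts, against 40.7% of all rows, and a low gene can pass it through the group where it is high. Of the 7, 4 were called higher in KO and 0 lower (edgeR quasi-likelihood test, adjusted p under 0.05), where 10.4% of the 10241 genes tested were called higher and 9.30% lower. None of the 7 was lower at an unadjusted p under 0.05. DESeq2 called 2 of the 7 higher and 0 lower, where it called 6.35% of all genes tested higher and 4.94% lower. With limma-voom these were 2 and 0, beside 10.7% and 10.00% of all genes. Relative to the median of the chromosome they were 4 and 0, beside 6.28% and 6.67%.

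Hoxc13, the posterior end gene of its cluster and known for its role in hair and nail, was the most abundant Hox gene. It had 73 and 51 counts in KO and 22 and 10 in WT. This is 25.9 ± 1.05 CPM against 8.45 ± 1.17 CPM (n = 2 each), so the groups did not overlap. Its log2 fold change was 1.59 (SE 0.44, edgeR adjusted p = 0.00684), and it was the same, 1.59, relative to chromosome 15. The call was lost without KO replicate 1 (edgeR adjusted p = 0.0520) and without KO replicate 2 (adjusted p = 0.0500).

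Hoxb13, a posterior gene of the tail bud and prostate set far from the rest of Hoxb, had 20 and 27 counts in KO and 4 and 2 in WT. That is 10.5 ± 5.11 CPM against 1.60 ± 0.115, with KO replicate 2 above KO replicate 1. The log2 fold change was 2.63 (SE 0.80, edgeR adjusted p = 0.0131), and 3.10 relative to chromosome 11, which went the other way. The call was lost with DESeq2 (adjusted p = 0.0711), with limma-voom (0.0661) and without any 1 of KO replicate 2 (0.332), WT replicate 1 (0.0876) and WT replicate 2 (0.0557).

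Hoxc9 and Hoxc10 are neighbouring posterior genes known for their part in spinal motor neurons. Hoxc9 had 17 and 19 counts in KO and 1 and 2 in WT, or 7.90 ± 2.88 against 0.973 ± 0.779 CPM. The ratio of summed counts per depth was 8.90 (95% interval 2.81 to 45.2), and the log2 fold change was 3.12 (SE 0.94, edgeR adjusted p = 0.0129). Hoxc10 had 14 and 12 counts in KO and 1 and 2 in WT, with a ratio of 6.43 (1.97 to 33.2). Its log2 fold change of 2.63 (SE 0.99) missed the threshold (adjusted p = 0.0507). For both genes the KO libraries lay above the WT libraries. The Hoxc9 call was lost with DESeq2 (adjusted p = 0.0898), with limma-voom (0.0513), and without KO replicate 1 (0.0935), KO replicate 2 (0.261) or WT replicate 1 (0.248). The fold change itself was 2.32 without WT replicate 1 and 4.05 without WT replicate 2.

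Hoxb9 and Hoxc4 were tested and did not pass. Hoxb9, a posterior gene of the thoracic skeleton, had 31 and 26 counts in KO and 18 and 9 in WT, and differed by 0.73 on the log2 scale (SE 0.58, edgeR adjusted p = 0.423). Hoxc4, the anterior end gene of its cluster, had 6 and 8 counts in KO and 22 and 6 in WT, which is 3.13 ± 1.50 against 6.92 ± 3.33 CPM. Its log2 fold change was -1.24 (SE 0.75, adjusted p = 0.264). It was the only one of the 39 with both KO libraries below both WT libraries on the CPM scale, by a narrow margin, since KO replicate 2 and WT replicate 2 were close.

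**Figure D4:**
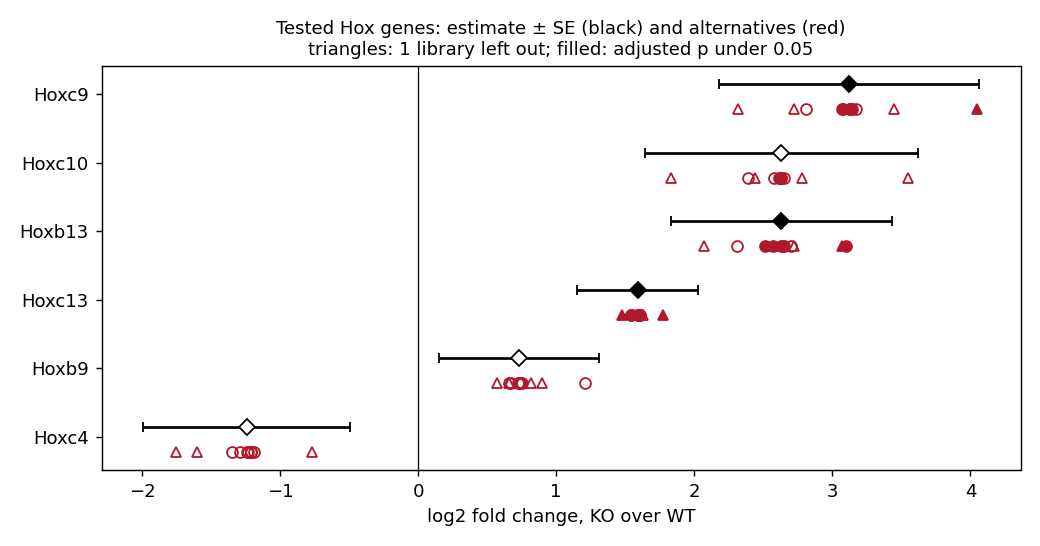
Log2 fold change, KO over WT, of 6 tested Hox genes, with the estimate ± SE in black and 12 alternatives in red (triangles leave out 1 library, filled symbols have an adjusted p under 0.05; Hoxc4 has 11). Signs do not change, from Hoxc9 at 3.12 to Hoxc4 at -1.24, and the 3 called genes shown each lose the call in some alternatives.

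For Hox genes under the filter with at least 10 counts in all, the ratio of summed counts per depth was taken, with an exact 95% interval that covers counting error only. Hoxc8, which lies beside Hoxc9, had 9 and 11 counts in KO and 0 and 1 in WT, a ratio of 14.8 (2.37 to 615). Hoxa10, a gene of the uterus and lumbar spine, had 25 and 7 against 3 and 0, a ratio of 7.91 (2.48 to 40.4). Hoxa7, a central gene, had 12 and 3 against 1 and 1, a ratio of 5.56 (1.29 to 50.1). In these 3 the interval lay above 1 and the groups did not overlap, and KO replicate 1 held most of the counts of Hoxa10 and Hoxa7. The ratios of Hoxa genes hold the shift of chromosome 6 given above, a median log2 fold change of 0.92. That shift is larger than the lower limit of Hoxa7, so the Hoxa7 interval does not lie above the shift.

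Among genes at 0 in WT, Hoxd9 had 5 and 7 counts in KO, at least 2.97-fold higher against a floor of 3 counts over the WT group. Hoxa5, a central gene known for its role in lung, had 5 and 5 counts in KO, at least 2.47-fold higher against the same floor. The floor is worth 0.821 CPM over the WT pair. By exact counting intervals the lower 95% limit of the ratio was 2.06 for Hoxd9 and 1.66 for Hoxa5. The Hoxa5 value holds the shift of chromosome 6, and its lower limit does not exceed that shift. Hoxc12 had 7 and 2 counts against 1 and 0, with a ratio of 6.68 and an interval that includes 1 (0.925 to 293). Hoxb4, an anterior gene also known in blood stem cells, had 5 and 11 against 2 and 2 (2.97, 0.957 to 12.2).

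No difference was detectable at this depth for several members. The ratio was 2.23 (0.555 to 12.8) for Hoxb2, with 2 and 7 counts in KO and 1 and 2 in WT. For Hoxa9, with 4 and 6 against 1 and 5, it was 1.24 (0.407 to 4.14). For Hoxc6, with 6 and 2 against 1 and 4, it was 1.19 (0.342 to 4.61). Hoxb7 had 6 and 3 against 4 and 3, a ratio of 0.954 (0.316 to 3.01), and Hoxd8 had 3 and 2 against 0 and 6, a ratio of 0.618 (0.149 to 2.43). These intervals are wide and do not show equal levels. Hoxa9 and Hoxd8, the hosts of the strongest peaks within Hoxa and Hoxd genes, were among them.

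The other members with a peak within 1 kb had fewer than 10 counts in all. Hoxd11 had 6 counts in KO replicate 1 and 0 elsewhere, and Hoxa13 had 3 in KO replicate 1 alone. Hoxc5 had 2 and 0 in KO and 1 and 2 in WT, and Hoxd13 had 2 and 0 against 1 and 0. Hoxa4, Hoxc11 and Hoxd3 each had 1 count, in KO replicate 2. Hoxa3, Hoxa6 and Hoxd1 had none. Of the members with neither a peak nor 10 counts, Hoxd4 had 8 and 0 counts in KO and 1 and 0 in WT, and Hoxb3 had 0 and 1 against 1 and 0. Hoxb6 had 2 counts in WT replicate 1, and Hoxb5 and Hoxd10 had 1 each in KO replicate 1. These 5 were named after their values were seen. Hoxa4, Hoxa5 and Hoxa6 lie inside the Hoxa3 interval, Hoxb4 inside Hoxb3 and Hoxd4 inside Hoxd3, and Hoxd10 overlaps Hoxd11, so their reads may be shared.

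Counting all members on the CPM scale, both KO libraries lay above both WT libraries in 13 of 39 Hox genes, below in 1, and overlapped or were all 0 in the rest. Among genes with at least 1 count these are 41.9% and 3.23% of 31 Hox genes, where 22.4% of 16711 rows were above and 23.2% below. With at least 10 counts they are 68.4% and 5.26% of 19 Hox genes, where the shares over 12635 rows were 26.9% and 27.4%. The same 13 genes are above at both limits, and a low gene can reach 10 counts through the KO libraries, so the larger share says no more than the smaller one. Of 76 other homeobox genes with at least 1 count, 17.1% were above and 9.21% below. Those 104 genes summed to 209.5 and 215 CPM in KO and 179.6 and 186 CPM in WT, 1.16-fold, against 2.73-fold for Hox. These are descriptions of the lists, and genes of 1 cluster are not independent.

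Higher counts in KO were seen with and without a peak nearby. Of the 21 Hox genes with a summit within 1 kb, 18 had a count. In 8 of these 18 both KO libraries were above both WT libraries on the CPM scale. The genes with a summit held 334 raw counts in KO and 87 in WT. Of the 18 genes without a summit, 13 had a count. In 5 of these 13 the KO libraries were above, and the genes without a summit held 192 raw counts in KO and 59 in WT. These raw sums are not scaled for the deeper KO pair. Among all rows with at least 1 count, 22.4% were above. Hoxb13, called higher, had its nearest summit 3999 bases away, and Hoxb4, with 5 and 11 counts against 2 and 2, lay 66712 bases from one. Hoxd1 had 2 peaks and no count. The peak list was made in RCOR2-HA expressing cells and has no KO counterpart here, so binding and counts were not measured in the same samples. Any part of binding in the Hox counts was not tested.

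Noncoding RNA genes of the clusters were too low to test. They were chosen for naming after their values were seen. Halr1, in the Hoxa window, had 7 and 9 counts in KO and 0 and 0 in WT, at least 3.96-fold higher against 3 counts over the WT group, with a lower 95% counting limit of 2.86 and with the shift of chromosome 6 included. Hotair, in Hoxc, an RNA studied for its link to Polycomb proteins, had 9 and 9 against 0 and 1, a ratio of 13.4 (2.11 to 556). The 17 noncoding genes of the list found in the table summed to 8.63 and 14.6 CPM in KO and 1.26 and 2.29 in WT, and 13 of them, including Hottip and Haglr, had no count.

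Neighbouring genes outside the clusters were called in both directions. Of 27 tested neighbours, 8 were called higher and 6 lower, beside 10.4% and 9.30% of all genes tested, with a median log2 fold change of -0.29 beside -0.02 over all genes tested. All 6 tested neighbours of Hoxa on chromosome 6 were among the 8. Hibadh, an enzyme of valine breakdown, was higher by 1.51 on the log2 scale (edgeR adjusted p = 6.38e-05) and Skap2, an adaptor protein, 1.24 (adjusted p = 9.77e-06). Relative to chromosome 6 these are 0.59 and 0.33, and neither is called. Beside Hoxb, Calcoco2, an autophagy receptor, was higher (1.24, adjusted p = 2.32e-09), while the ESCRT gene Snf8 (-1.17, adjusted p = 1.70e-06) and the tubulin modifier Ttll6 (-1.17, adjusted p = 0.0168) were lower. The Ttll6 call was lost in 5 of 12 alternatives. These were centring on chromosome 11 (-0.68, adjusted p = 0.236), DESeq2 (0.0989), and the fits without KO replicate 1 (0.0689), KO replicate 2 (0.105) or WT replicate 1 (0.347). Lnpk, the gene next to Hoxd that shares its limb enhancers, was lower (-1.14, adjusted p = 0.00956). Its call was lost with DESeq2 (0.0685), without KO replicate 2 (0.114) and without WT replicate 1 (0.250). Centred on the chromosome, 1 of the 27 was higher and 3 were lower, beside 6.28% and 6.67% of all genes tested.

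Partners and activators of Hox proteins were mostly low or not called. Of 9 cofactor genes 5 were tested, and 1 was called higher and 0 lower, beside 10.4% and 9.30% of all genes tested. This was Pbx4, a PBX homeodomain partner, at 1.25 on the log2 scale (edgeR adjusted p = 0.0348). The call was lost in 6 of 12 alternatives, among them the one centred on its chromosome 8 (0.73, adjusted p = 0.302) and those without KO replicate 1 (0.311), KO replicate 2 (0.0550) or WT replicate 2 (0.143). Meis2, a MEIS homeodomain partner, had 51 and 39 counts in KO and 12 and 16 in WT (1.22, adjusted p = 0.0864). It was called by limma-voom (1.41, adjusted p = 0.0354) and without WT replicate 2 (1.89, adjusted p = 0.0184), and was 0.65 (adjusted p = 0.498) without WT replicate 1. Pbx2 had -0.93 (adjusted p = 0.341). Cdx2, an activator of posterior Hox genes that was chosen after its values were seen, had 8 and 6 counts in KO and 0 and 0 in WT, while Cdx1 did not pass (0.13) and Cdx4 had no count.

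The called genes of the retinoic acid pathway, which induces anterior Hox genes, were all lower. Of 20 genes 9 were tested, 0 were called higher and 3 lower, beside 10.4% and 9.30% of all genes tested. Their median log2 fold change was -1.0. Centred on the chromosome, 0 were higher and 2 lower, beside 6.28% and 6.67% of all genes tested. The receptor Rarg had 21 and 14 counts in KO and 59 and 25 in WT, and it fell by 1.60 on the log2 scale (SE 0.48, edgeR adjusted p = 0.0131). The call was lost with DESeq2 (0.0608) and without KO replicate 1 (0.0781), KO replicate 2 (0.0616) or WT replicate 1 (0.155). Stra8, a retinoic acid target of germ cells, fell by 1.40 on the log2 scale (adjusted p = 4.70e-04) and kept its call in all 12 alternatives. It lies on chromosome 6, and relative to that chromosome it was -2.32 (adjusted p = 8.15e-08). The receptor Rara had -1.0 (adjusted p = 0.0494), a call lost in 10 of 12 alternatives. The receptors Rxra (0.19, adjusted p = 0.880) and Rxrb (0.27, adjusted p = 0.742) did not pass.

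Of 32 regulators of Hox chromatin 29 were tested, 2 were called higher and 4 lower, with a median of -0.01. Over all genes tested 10.4% were called higher and 9.30% lower, so these counts are near the background. Centred on the chromosome, 1 was called higher and 3 lower, beside 6.28% and 6.67% of all genes tested. Among these lower ones were Phc1 (-1.07, edgeR adjusted p = 2.83e-05) and Ash2l (-0.53, adjusted p = 0.0103), which were not called before centring. Suz12, a core subunit of Polycomb repressive complex PRC2, had 1175 and 652 counts in KO and 1625 and 1134 in WT (373 ± 45.6 against 774 ± 127 CPM). It fell by 1.05 on the log2 scale (SE 0.15, edgeR adjusted p = 2.90e-07) and kept its call in all 12 alternatives. Suz12 lies on chromosome 11, and relative to that chromosome it was only -0.56 (adjusted p = 0.00682). Ezh2, the PRC2 methyltransferase on chromosome 6, was higher (0.82, adjusted p = 3.11e-05), but had -0.10 relative to its chromosome. The PRC1 subunit Pcgf2 was lower (-1.50, adjusted p = 0.00282), a call lost relative to chromosome 11 (adjusted p = 0.0679) and without KO replicate 1 (adjusted p = 0.110). Men1, a partner of the MLL methyltransferases, was higher (0.94, adjusted p = 0.0248), and the H3K27 demethylase Kdm6a was lower (-0.90, adjusted p = 0.0330). Bptf, a chromatin remodeller subunit, was lower (-0.44, adjusted p = 0.0363) but had 0.05 relative to chromosome 11. The Bptf call was also lost in 8 other alternatives. Among them were DESeq2 (adjusted p = 0.0834), no filter (0.106) and at least 10 counts (0.0632). The Men1 call was lost with DESeq2 (0.117) and without KO replicate 1 (0.0663), KO replicate 2 (0.163) or WT replicate 1 (0.307). The Kdm6a call was lost with DESeq2 (0.135), relative to its chromosome (0.0554) and without KO replicate 1 (0.177), KO replicate 2 (0.106) or WT replicate 2 (0.349).

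Homeobox genes outside the clusters were split. Of 104 genes 9 were tested, 3 were called higher and 2 lower, beside 10.4% and 9.30% of all genes tested. Tlx2, which has 4 summits within 1 kb, had 48 and 26 counts in KO and 1 and 0 in WT (log2 fold change 5.54, edgeR adjusted p = 1.69e-05). With 1 count in WT the size is uncertain. It was 4.71 relative to chromosome 6 (adjusted p = 8.29e-04) and 7.96 without WT replicate 1. Nkx6-2 (3.91, adjusted p = 0.00239) was also higher, a call lost without WT replicate 1 (3.48, adjusted p = 0.0638), and Six4 (-1.67, adjusted p = 0.00200) was lower.

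Of the marker lists of other cells, the summed level of the mesoderm list was higher in both KO libraries and that of the fibroblast list was lower. The 12 mesoderm markers summed to 26.9 and 32.4 CPM in KO and 2.95 and 6.86 CPM in WT. Of these, 1 was tested, Eomes, with 50 and 43 counts in KO and 3 and 4 in WT (log2 fold change 3.30, edgeR adjusted p = 1.32e-04). It was called higher, as were 10.4% of all genes tested. Its log2 fold change was 2.69 without WT replicate 1 and 3.91 without WT replicate 2. The whole list held 78 and 62 counts in KO and 7 and 9 in WT, so Eomes alone made up most of the KO sum. The defining markers T, Mesp1 and Msgn1 had no count in any library. The 15 fibroblast markers summed to 64.9 and 63.3 CPM in KO and 76.3 and 118 CPM in WT. Of these, 2 were tested and 0 called, where 10.4% of all genes tested were called higher and 9.30% lower. None was at 0 in all libraries. The 12 neural markers summed to 659 and 705 CPM in KO and 614 and 455 in WT. Of the 5 tested, 1 was called higher and 3 lower, beside 10.4% and 9.30% of all genes tested. Centred on the chromosome, 0 were higher and 3 lower, beside 6.28% and 6.67%. Another 3 were at 0 in all libraries, among them Neurog2 and Dcx. Stmn2, which acts on microtubules in neurons, made up most of the neural sum, at 644 against 452 CPM (log2 fold change 0.50, edgeR adjusted p = 0.0119, and 0.03 with adjusted p = 0.945 relative to its chromosome). Its call was also lost without KO replicate 1 (0.111), KO replicate 2 (0.158) or WT replicate 2 (0.127). The other 11 neural markers summed to 23.5 and 52.8 CPM in KO and 95.3 and 69.3 CPM in WT, so without Stmn2 both KO libraries were lower. The part of other cell types in the Hox counts was not tested.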

How the data were processed

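Expression was read from the table of raw counts that the authors deposited for the 4 RNA-seq libraries. Per the submitters' processing notes the series used STAR 2.5.2b, Subread, featureCounts, Bowtie2 2.3.4.1, MACS2 2.1.1.20160309 and the builds GRCm38 and mm10. The strand setting and any collapse of molecular identifiers are not stated in those sources. The RCOR2 peak fold (ratio to control) and −log10 q are as the authors deposited them, called on merged libraries per the peak names in the file, and describe peaks within that list only. The summit offset in the peak list is also as deposited. Positions are 1-based on GRCm38.

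Gene intervals came from RefSeq GRCm38.p6, which placed 25028 of 25131 rows. Starts came from its promoter table for 22 Hox genes and otherwise from the gene interval and the strand of the cluster. KO and WT were compared with edgeR 4.0.16 in R 4.3.3 (filterByExpr, TMM, quasi-likelihood test, two-sided, Benjamini-Hochberg over 10241 genes, adjusted p under 0.05), tested on simulated data. CPM are scaled by TMM. The SE comes from the fold change and F statistic. Low genes have ratios of summed counts per total counts with exact 95% intervals for counting error. Nothing in the labels gives the replicates as separate cultures, so the spread behind the p-values may be technical. Replicates differed beyond sampling noise (chi-square over degrees of freedom 4.78 in WT, 4.22 in KO).

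Members and lists were chosen with earlier results of these data known. Named were Hox genes tested, with at least 10 counts or with a peak within 1 kb, the 3 strongest peaks of a window, up to 6 called members of a list, and tested retinoic acid receptors, PBX and MEIS genes. Alternatives changed the tool (DESeq2 1.42.0, limma-voom with limma 3.58.1), scaling, filter, replicates, replicate block, chromosome centring, peak threshold and window. TINC input, ChIP controls and ATAC-seq were not analysed here. Some genes that the naming rule covers are not reported here.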

Additional observations from a re-analysis of the deposited data

How the results depend on the processing

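The count of Hox genes called higher, 4, was 2 with DESeq2 and 2 with limma-voom (Hoxc13 in both), 5 with RLE scaling, which added Hoxc10, and between 1 and 3 with 1 library left out. It was 4 of 7 tested with library size only and 4 of 7 with chromosome centring. Without a filter it was 4 of 31, and with at least 10 counts 4 of 19. In each of these 0 were called lower. Over all genes tested in these settings, in the same order, 8.63%, 6.28%, 6.18% and 8.68% were called higher. The shares called lower were 10.1%, 6.67%, 4.81% and 7.25%. With RLE scaling the shares higher and lower were 10.5% and 9.21%, and with the replicate block 9.46% and 8.33%. With the replicate number as a block the count was 4 as well, though same-numbered samples did not deviate together (correlation -0.0532), so the samples share only a number. The block ended the calls of Rara (adjusted p = 0.0607) and Bptf (adjusted p = 0.0631). Leaving out 1 library leaves an arm with 1 sample, assumed to vary like the other group. No tested Hox gene changed sign. Centring on the chromosome reversed Ezh2 (-0.10), Bptf (0.05) and the ESC marker Nanog (-0.44). Hox genes counted in WT were 14 with at least 3 counts. With a −log10 q of at least 5 the peaks were 3 in Hoxa, 5 in Hoxc and 2 in Hoxd, with a fold of at least 5 they were 3, 2 and 2, and within 100 kb 16 in Hoxa and 15 in Hoxb. Hox genes with a peak within 1 kb were 9 and 6 at those thresholds. The log2 ratio of summed Hox CPM, 1.45, ran from 1.33 to 1.58 with 1 library left out, and from 0.60 to 3.04 for Hoxd. The cause of these changes was not tested, apart from fewer samples in the runs without a library. Since 20 of the 39 Hox genes had fewer than 10 counts in all, differences in them were mostly not detectable at this depth.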
